A study of Mus musculus with 2 samples.

Results

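The Kruppel-like factors are DNA-binding proteins that end in a block of zinc fingers and bind GC-rich and CACCC elements of promoters. Members differ mainly in the part before the zinc fingers, which either activates transcription through p300-type acetyltransferases or represses it through CtBP or Sin3 corepressors. In white blood cells the family is known for holding cells in a resting state, for guiding their traffic between blood and tissue and for steering myeloid differentiation. The 8 genes described here, Klf2, Klf3, Klf4, Klf6, Klf7, Klf9, Klf10 and Klf13, were chosen by name from the 55536 annotated genes of the main table, and each was found under its symbol.

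The samples were neutrophils from peripheral blood of adult C57BL/6J mice aged 5 to 6 weeks, collected as primary cells with no treatment named and with sex not collected. Total RNA, 100 ng per library, was made into sequencing libraries with the ScriptSeq v2 kit at a labelled size range of 200 to 1000. The 2 libraries are replicates 1 and 2 of 1 group, so no conditions could be compared and no test was run. Both carry 1 donor identifier, so the spread between them may be technical.

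Replicate 1 held 22647028 expected counts and replicate 2 held 21471719, of which 72.6% and 71.5% fell on nuclear protein-coding genes. TPM, the level per length scaled to a fixed total, gave those genes a smaller share of 8.81% and 8.35%. A gene was called detected where each library had a TPM of 1 or more. The labelled cell type was checked on 12 neutrophil markers, all of them detected, with sums of 2575 and 2604 TPM. S100a9 led the markers with 1123 and 1275 TPM, ahead of S100a8 with 786 and 712, and Ly6g was lowest with 1.91 and 2.29. All 12 B-cell markers were detected too, with sums of 755 and 678 TPM, led by Ighm at 290.1 and 261 TPM and Ighd at 85.3 and 78.8. Cr2 was lowest at 16.4 and 13.5 TPM. The medians of the lists lay closer together than the sums, since S100a9 and S100a8 held most of the neutrophil sum. They were 50.01 and 49.89 TPM for the neutrophil markers and 44.67 and 38.98 TPM for the B-cell markers in replicates 1 and 2. Both cell types use several Kruppel-like factors, and the part of B-cell RNA in the levels below was not tested. Nor can fewer cells of a type and less RNA per cell be told apart in bulk RNA.

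The first splice junction is shown for each Klf10 transcript that held 5% or more of the gene's TPM in a library by either transcript table, because the levels of these transcripts differed between tables. Klf10 lies on GRCm38 at chr15:38291463-38300706, minus strand. Each line gives the 30 bases around a splice junction in the GENCODE M21 transcript, 5′ to 3′, with the upstream exon in lower case and the downstream exon in capitals.
Klf10-201: ctccagcaagcttcgGAGGGGAAAATGGAA
Klf10-202: gccagcctcattgagGAGGGGAAAATGGAA
Klf10-205: ttatgcaattacattGAGGGGAAAATGGAA
Klf10-206: atgctgcagatgcggGAGGGGAAAATGGAA
Klf10-204: ctccagcaagcttcgGCTGGAATATCATCG
All but the last of these joined different first exons to the same second exon. Klf10-204 kept the first exon of Klf10-201, joined it at another site inside the first intron and ended there. The junction of Klf10-201 is also that of Klf10-203, a minor transcript that differs from it farther downstream.

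The likeness of the 8 genes to each other is shown by the longest run of bases that a pair of coding regions had in common, here the 3 longest of the 28 pairs, all in capitals because every base is shared.
Klf6 and Klf7: GACAGGTGTTTCTCCAGGTCTGACCA
Klf2 and Klf7: CACACAGGTGAGAAGCCTTA
Klf2 and Klf10: ACACACACAGGTGAGAAG
All 3 runs lay near the 3′ end of the coding regions, in the stretch that codes for the zinc fingers. The longest had 26 bases and the median over the 28 pairs was 12.5. How reads over these runs were assigned was not tested. The deposited SD of the count from reads shared between genes was 0 for all 8 in both libraries. Klf2, Klf6, Klf9 and Klf10 had no run of 50 bases in another gene on either strand. Klf3 shared 0.35% of its runs with 24 other genes on the same strand and 3.44% with 21 on the opposite strand. Klf4 and Klf13 shared 0.263% and 0.147%, each with 1 gene on the same strand. Klf7 shared 38.2% with 1 gene on the opposite strand only.

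Klf6 was the most abundant of the 8 genes, followed by Klf2, Klf3, Klf13, Klf10, Klf7, Klf4 and Klf9. In the main table, Klf6, Klf2 and Klf3 together made up 80.8% and 82.4% of the TPM of all 17 mouse Kruppel-like factor genes in replicates 1 and 2. Of the 8 genes, 6 were detected, beside 15.7% of all genes and 34.9% of nuclear protein-coding genes. The members nearest that limit were Klf7 above it, with 2.98 and 2.78 TPM, and Klf4 just below it, with 0.98 and 0.97. The median over all 8 genes was 9.40 TPM in replicate 1 and 7.83 in replicate 2, against 4.42 and 4.15 over the detected nuclear protein-coding genes. These counts and medians describe a list chosen with earlier results known.

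**Figure D1:**
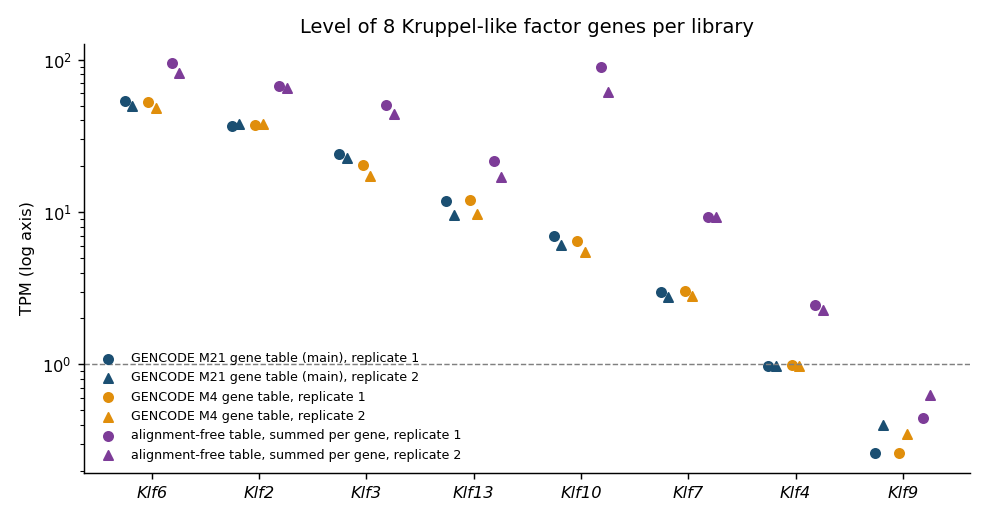
TPM on a log axis of each gene in replicate 1 (circles) and replicate 2 (triangles), from the main gene table, the gene table on the older annotation and the alignment-free table summed per gene. The dashed line marks a TPM of 1. The order from Klf6 to Klf9 was the same in both main-table libraries, and Klf10 stood apart in the alignment-free table at 89.6 and 61.2 TPM.

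Each of the 7 neighbouring pairs in this order kept its direction in both libraries, with a mean difference larger than its SD. The order was set by the mean TPM of these same 2 libraries, which favours that outcome, so it is a description and no test. The closest pair was Klf6 and Klf2, whose levels differed by 0.47 ± 0.11 on the log2 TPM scale (SD, n = 2). The difference from Klf2 to Klf3 was 0.67 ± 0.09, and that from Klf13 to Klf10 was 0.72 ± 0.07. The steps from Klf7 to Klf4, 1.56 ± 0.06, and from Klf4 to Klf9, 1.60 ± 0.45, were the widest by mean and differed by less than the SD of the latter, which rested on the lowest counts.

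The family is described by its known cofactor classes. The activator class was represented by Klf6, Klf2, Klf7 and Klf4. With Klf1 and Klf5 it made up 67.0% and 68.4% of the family's TPM, and 49.5% and 53.9% in the alignment-free table. Klf6, at chr13:5861482-5870394 on the plus strand, is an early-response factor also studied as a tumour suppressor, and it is known to promote inflammatory gene expression in macrophages. It had 20639 and 19079 counts, or 53.7 and 49.5 TPM (mean 51.6 ± 2.99, SD, n = 2), and ranked 222 among nuclear protein-coding genes by mean TPM. Nearly all of it came from Klf6-201, the transcript of 318 codons, with 96.2% and 95.8% of the gene's TPM. The retained-intron transcript Klf6-202 took 3.37% and 3.74% in that table and 10% and 9.87% in the alignment-free table.

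Klf2, at chr8:72319033-72321656 on the plus strand, keeps lymphocytes quiescent, restrains inflammatory activation of myeloid cells and is induced by blood flow in endothelium. It had 6040 and 6236 counts, giving 36.7 and 37.6 TPM (mean 37.2 ± 0.594, SD, n = 2) and rank 327. It was the only one of the 8 genes with a single annotated transcript, so its level did not depend on how reads were split between transcripts. It still differed between tables, with 8681 and 8793 counts, or 67.1 and 65.4 TPM, in the alignment-free table. That table held 28957410 and 27088642 counts in all and gave nuclear protein-coding genes 16.6% and 14.95% of TPM. Both are above the main table, so the difference is not particular to Klf2. The counts of Klf2 were below those of Klf3 while its TPM was higher. Its effective length was 1682 and 1688 bases against 4507 and 4329 for Klf3.

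Klf7, at chr1:64029447-64122282 on the minus strand, is the closest relative of Klf6 and is known mainly from neuronal development. It had 1804 and 1645 counts, or 2.98 and 2.78 TPM (mean 2.88 ± 0.141, SD, n = 2). Klf7-202, with 301 codons, took 79.5% and 77.6% of the gene's TPM, and Klf7-201, with 285 codons, took 16.7% and 11.5%. The incomplete transcript Klf7-203 took 3.82% and 10.9% in the same table but 46.4% and 53.6% in the alignment-free table. It held only 128 and 157 estimated counts there, 5.47% and 7.35% of the gene's counts, since it is 553 bases long against 7662 for Klf7-202. The opposite-strand gene Gm26649 covers part of Klf7 and shared 38.2% of its runs of 50 bases. Gm26649 had 38 and 13 counts, few beside those of Klf7, but the strand setting of the counting is not given in the sources used here.

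Klf4, at chr4:55527143-55532466 on the minus strand, is a factor of monocyte differentiation and 1 of the classical reprogramming factors. It had 254 and 273 counts, or 0.98 and 0.97 TPM (mean 0.975 ± 0.00707, SD, n = 2), and so missed the limit of 1 narrowly. The deposited interval of its TPM ran from 0.862 to 1.18 in replicate 1 and from 0.871 to 1.13 in replicate 2, on both sides of that limit. The full transcript Klf4-201, with 483 codons, took 91.2% and 100% of it. The incomplete Klf4-202 took 8.76% in replicate 1 on 3 counts and 0% in replicate 2, and 16.9% and 3.26% by the alignment-free estimate. Klf4-203, also incomplete, was at 0 in the main transcript table and at 2.24% and 14.2% in the alignment-free table. Among the monocyte markers, 6 of 8 were detected, summing to 31.0 and 27.8 TPM with Csf1r highest, Ly6c2 next and Ace lowest; their part in the level of Klf4 was not tested.

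The CtBP-binding class was represented by Klf3, at chr5:64803388-64832901 on the plus strand, a repressor that opposes activating members at CACCC elements and restrains adipocyte differentiation. It had 10606 and 9624 counts, or 24.1 and 22.6 TPM (mean 23.3 ± 1.02, SD, n = 2), and ranked 613. It made up nearly all of its class, which with Klf8 and Klf12 held 17.3% and 17.4% of the family's TPM. Klf3-201, with 344 codons, took 75.9% and 71.2% of the gene's TPM. Klf3-202 codes for the same number of codons on a shorter transcript and was at 0 in the main transcript table, but at 24.5% and 19.2% in the alignment-free table. Klf3-202 had 1 base in no other transcript of the gene, against 3540 for Klf3-201.

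Klf3 also carried the most counts on retained-intron transcripts. Klf3-203 took 9.09% and 9.25% of its TPM and Klf3-204 took 11.8% and 13.3%. Together the retained-intron transcripts held 14.5% and 16.2% of the gene's counts, and 14.8% and 16.7% by the alignment-free table. This share of counts differed little between the tables. The share of TPM differed more, at 20.9% and 22.5% against 15.7% and 17.7% in the alignment-free table. The short transcripts Klf3-206 and Klf3-207 reached 5% only in the alignment-free table, with 5.15% and 7.39% for Klf3-206 and 4.12% and 7.10% for Klf3-207. A further gene, C230096K16Rik, lies within Klf3 on the same strand and had 1588 and 1468 counts of its own. In the older annotation Klf3 had 20.3 and 17.2 TPM, below both main values.

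The Sin3-binding class was represented by Klf13, Klf10 and Klf9, and with Klf11, Klf14 and Klf16 it made up 15.7% and 14.2% of the family's TPM. Klf13, at chr7:63886351-63938915 on the minus strand, is known for driving late Ccl5 expression in T cells. It had 3279 and 3029 counts, or 11.8 and 9.62 TPM (mean 10.7 ± 1.58, SD, n = 2), and ranked 1555. Klf13-201, the transcript with the full reading frame of 289 codons, took 39.7% and 45.7% of the gene's TPM but 87.3% and 89.0% of its counts. The single-exon retained-intron transcript Klf13-203, which is 934 bases long against 6396, took 36.7% and 38.5% of the TPM on 9.97% and 9.31% of the counts. Klf13-204, with 52 codons, took 23.6% and 13.3% of the TPM on 88.0 and 41.3 counts. Klf13-202, with 82 codons, was at 0 and 2.52%, and at 4.42% and 8.30% by the alignment-free table. Of the 8 genes, Klf13 was the one whose TPM in the main transcript table came mostly from short transcripts with few counts.

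Klf10, induced by TGF-beta and a repressor that feeds back on its signalling, had 1793 and 1555 counts, or 6.95 and 6.04 TPM (mean 6.495 ± 0.643, SD, n = 2). Klf10-202, with 464 codons, was the leading transcript with 72.3% and 82.2% of the gene's TPM on 1351 and 1346 counts, so its counts hardly differed between the libraries. Klf10-201, which differs in its first exon and codes for 479 codons, had 421 counts in replicate 1 and 166 in replicate 2, or 21.5% and 9.71% of the TPM. The deposited intervals of its TPM, from 0.957 to 2.07 and from 0.278 to 0.979, overlapped narrowly. The alignment-free table had the same direction with 558 and 226 estimated counts. It gave Klf10-202 1410 and 1457 counts but only 7.44% and 10.85% of the gene's TPM. Only 24 bases of Klf10-202 and 3 of Klf10-201 occur in no other transcript of the gene, so the split between them rests on little sequence. Klf10-206, with a first exon of its own, took 5.63% and 5.45% of the TPM. Klf10-205 reached 5.22% in replicate 2, only in the alignment-free table.

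**Figure D2:**
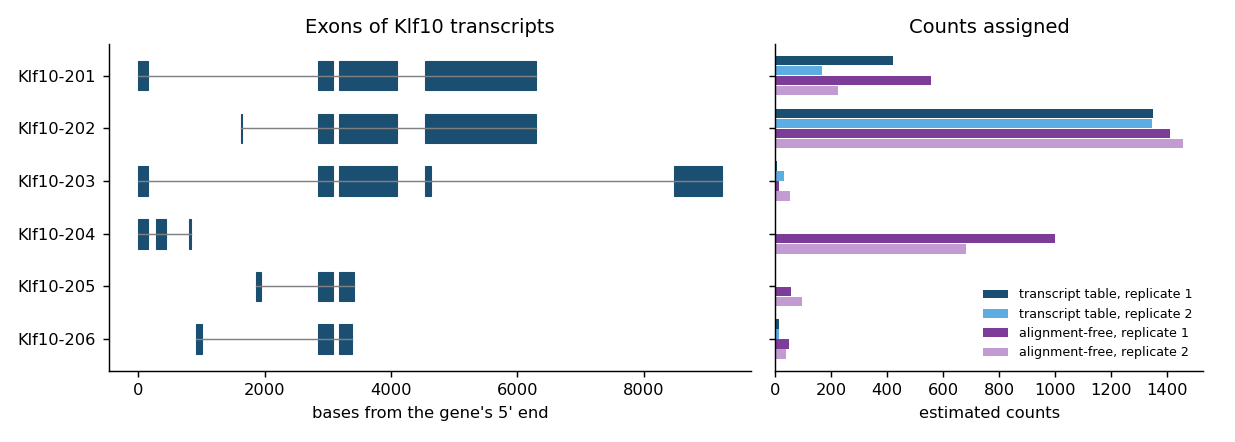
Left, exons of the 6 annotated Klf10 transcripts by distance in bases from the 5′ end of the gene; right, estimated counts given to each transcript in each library by both transcript tables. Klf10-202 held 1351 and 1346 counts in the main transcript table, and Klf10-204 held 1000 and 681 counts in the alignment-free table and 0 in the other.

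Among the 8 genes, Klf10 was the one on which the 2 kinds of table differed most in fold. Its summed TPM was 89.6 and 61.2 in the alignment-free table, which put its mean second after that of Klf6, although Klf2 was higher in replicate 2 with 65.4 TPM. The Sin3-binding class accordingly held 33.7% and 28.8% of the family's TPM there. In that table Klf10-204, an incomplete transcript of 326 bases, had 1000 and 681 estimated counts and 85.5% and 79.6% of the gene's TPM. The main transcript table gave it 0 counts in both libraries. Of its bases, 178 occur in no other transcript of Klf10, the capitals of its junction shown above among them. Without Klf10-204 the alignment-free mean of Klf10 was 12.7 TPM and the order of the 8 genes was that of the main table. Which table places these reads correctly was not tested.

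Klf9, at chr19:23141226-23168134 on the plus strand, is a glucocorticoid-induced factor. It was the lowest of the 8, with 109 and 148 counts and 0.26 and 0.40 TPM (mean 0.330 ± 0.0990, SD, n = 2). Klf9-201, with 244 codons, took all of it in replicate 1 and 83.7% in replicate 2, where the non-coding Klf9-202 took 16.3% on 6.13 counts. Of 6 glucocorticoid-response genes, 5 were detected, with Tsc22d3, which encodes the leucine-zipper protein GILZ, at 104 and 103 TPM and the phosphatase gene Dusp1 at 92.4 and 88.4. The lowest was Zbtb16 at 0.56 and 0.37 TPM.

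**Figure D3:**
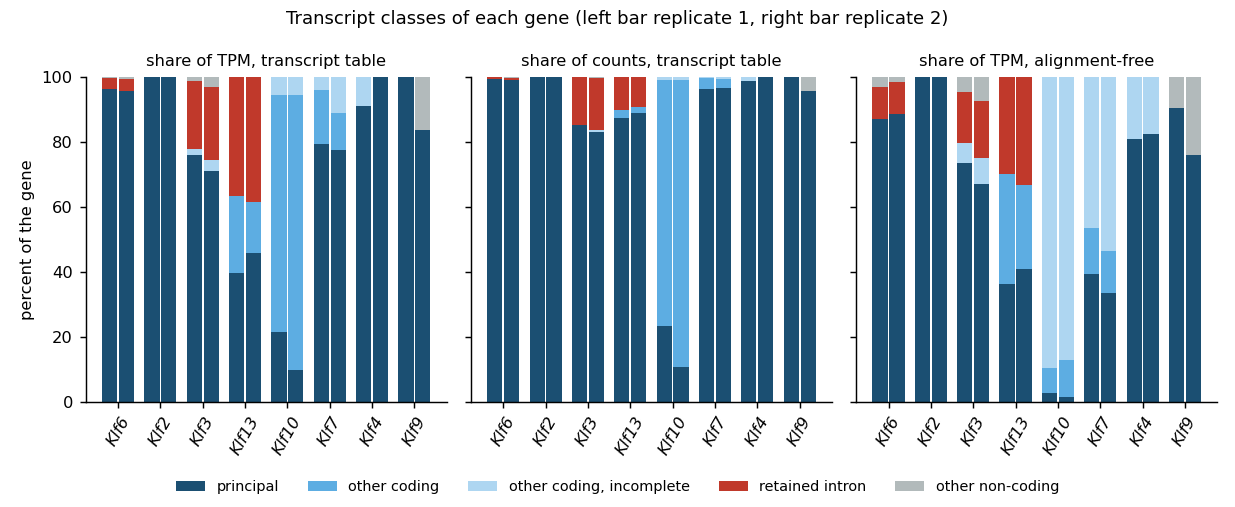
Percent of each gene in its principal transcripts, other coding, incomplete coding, retained-intron and other non-coding transcripts, with replicate 1 on the left and replicate 2 on the right of each pair of bars. Panels give the share of TPM and of counts in the main transcript table and the share of TPM in the alignment-free table. Klf13 went from 39.7% and 45.7% of TPM to 87.3% and 89.0% of counts in its principal transcript, and Klf10 held 2.81% and 1.61% in its principal transcript in the alignment-free table.

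Over the 8 genes, 31 transcripts are annotated, and 26 held at least 5% of their gene's TPM in a library by either table. Of these, 8 reached that share only in the alignment-free table. Retained-intron transcripts numbered 5, in Klf3, Klf6 and Klf13.

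The remaining 9 Kruppel-like factor genes were low. Klf11, a relative of Klf10 that is also induced by TGF-beta, was the only one detected, with 2.54 and 2.30 TPM, close to Klf7. Klf16 followed with 0.69 and 0.53 TPM and Klf5, an epithelial and progenitor factor, with 0.46 and 0.34. Klf12 had 0.30 and 0.34 TPM in the main table but 7.80 and 6.67 in the alignment-free table, and Klf8 had 0.14 and 0.17. Klf14, Klf15 and Klf17 had no count, and at these depths 3 counts, the limit that a 0 allows, stand for 0.132 and 0.140 CPM (counts per library total). Klf1, the erythroid factor, had 0 and 2 counts, in libraries whose red-cell markers summed to 4329 and 4264 TPM with 5 of 8 detected. Hba-a2 led these markers with 2897 and 2891 TPM, ahead of Hbb-bs, and Epb42 was lowest. The 8 genes described here held 97.1% and 97.2% of the family's summed 142 and 133 TPM.

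**Figure D4:**
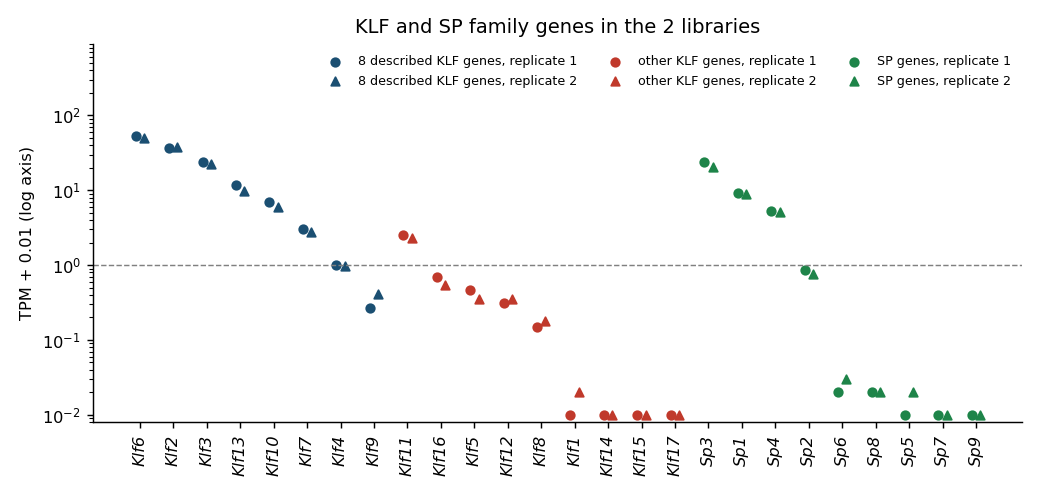
TPM plus 0.01 on a log axis of the 17 Kruppel-like factor genes and the 9 SP genes in replicate 1 (circles) and replicate 2 (triangles). The dashed line marks a TPM of 1, which 6 of the 8 described genes, Klf11, Sp3, Sp1 and Sp4 passed in both libraries.

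The SP factors share the zinc-finger type and many GC-rich binding sites with the family. Of 9 SP genes, 3 were detected. Sp3 stood at 24.0 and 20.3 TPM, a level like that of Klf3, and Sp1 at 9.05 and 8.89 TPM, between Klf13 and Klf10 in both libraries. Sp9 was listed at 0 TPM in both libraries on 0 and 2 counts, and Sp7 had no count.

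Of the 9 genes of cofactors that Kruppel-like factors recruit, 8 were detected, with a median of 7.495 ± 0.502 TPM (SD, n = 2). The acetyltransferase gene Ep300 was highest at 14.1 and 12.2 TPM and the corepressor gene Ctbp1, partner of Klf3, followed at 12.2 and 10.4. Its paralog Ctbp2 was lowest at 1.19 and 0.86. Of 15 genes upstream of the family, 14 were detected, with a median of 6.20 ± 0.566 TPM. Mef2c, a factor that induces Klf2 and Klf4 downstream of the ERK5 kinase cascade in endothelium, was highest at 58.1 and 42.1 TPM, and Map3k3, a kinase of that cascade, followed at 19.2 and 18.2. In the older annotation this order turned, with Mef2c at 17.2 and 15.2 TPM and Map3k3 at 19.4 and 18.4. Wwp1, which encodes a ubiquitin ligase that acts on Klf2, was lowest at 1.22 and 0.85. Mef2c is also used by B cells, whose markers are given above, and their part in its level was not tested.

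Of 9 reported targets, 7 were detected, and the list median was 3.77 ± 0.339 TPM. Itgb7, an integrin gene whose expression in lymphocytes depends on Klf2, stood at 29.0 and 28.6 TPM, and at 9.70 and 11.7 TPM in the older annotation. Nos3, the endothelial nitric oxide synthase induced by Klf2, had no count. Endothelial and tissue markers were at or near 0 except Pecam1 at 13.0 and 11.7 TPM, which white cells and platelets also express. Cdh5 had 1 and 5 counts and Alb had no count.

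The markers of the remaining blood cells had lower sums than the neutrophil, B-cell and red-cell markers. T-cell markers were detected for 9 of 10 genes and summed to 35.0 and 33.7 TPM, with Cd3g and Trbc2 highest and Cd4 lowest. Platelet markers were detected for 5 of 7 and summed to 24.5 and 24.96 TPM, with Ppbp and Tubb1 highest and Gp6 lowest. NK-cell markers were detected for 2 of 6 genes, Gzma and Klrd1, with Eomes lowest, and eosinophil markers for 2 of 5, Siglecf and Il5ra, with Epx lowest. Of 5 dendritic-cell markers only Cd209a was detected, ahead of Clec9a and with Xcr1 lowest, and of 5 basophil and mast-cell markers none was, with Ms4a2 and Gata2 highest and Mcpt8 lowest.

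None of the 8 genes differed by 1.5-fold between the 2 libraries on the TPM + 1 scale. On that scale 1.03% of 11981 genes with at least 50 counts were higher and 1.47% were lower in replicate 2. With so few genes past the fold, this is not particular to the 8. The added 1 also damps the ratio of genes under 1 TPM, here Klf4 and Klf9. At the precision that the counts give, exact 95% intervals of the ratio of counts scaled to the library totals left out 1 for 5 of the 8, with 2 higher and 3 lower in replicate 2. Among the 11981 genes, 17.6% were higher and 23.4% lower by the same call. Klf2 was higher in replicate 2 at a ratio of 1.09 (1.05 to 1.13), and Klf9 at 1.43 (1.11 to 1.85). Klf3 was lower at 0.957 (0.931 to 0.984), Klf10 at 0.915 (0.854 to 0.980) and Klf6 at 0.975 (0.956 to 0.994). These intervals cover counting error between 2 libraries only, and that of Klf6 held 1 once the libraries were scaled by TMM or DESeq2 factors or by protein-coding counts. The intervals of Klf4, Klf7 and Klf13 held 1.

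**Figure D5:**
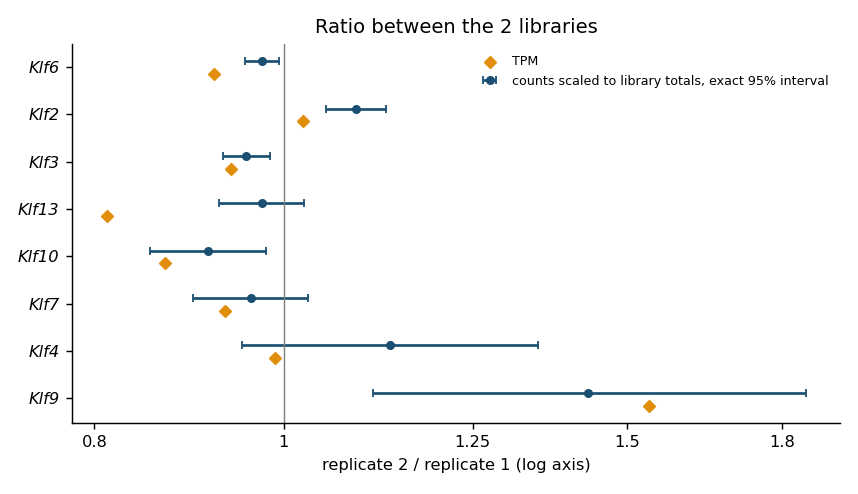
Ratio of replicate 2 to replicate 1 on a log axis, as counts scaled to the library totals with exact 95% intervals (circles) and as TPM (diamonds). The count ratios lay between 0.915 for Klf10 and 1.43 for Klf9, and the TPM ratios of Klf13 (0.812), Klf6 (0.921) and Klf2 (1.02) lay below their count intervals.

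TPM ratios departed from count ratios, and the effective length that the tables give a gene in each library moved with some of them. Klf13 had a TPM ratio of 0.812 against a count ratio of 0.974, and its effective length was 2830 bases in replicate 1 and 3203 in replicate 2. Klf4 had a TPM ratio of 0.990 against 1.13 in counts, with 2644 and 2870 bases. For Klf2, with its single transcript, the effective length moved by a factor of only 1.004, and its TPM ratio was 1.02 against 1.09 in counts. Klf9 had a TPM ratio of 1.54 without the added 1, against 1.43 in counts, with 4321 and 3778 bases.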

How the data were processed

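Total RNA-seq of 2 libraries was analysed from the deposited tables. The authors deposited gene tables on mm10 with an expected count (estimated count) and a TPM per gene on GENCODE M21, and on the older M4, per the file headers and file list. A transcript table gives the percent of its gene's TPM for each transcript, per the file headers. The deposited TPM bounds and posterior SD were treated as a score. A further deposited transcript table with no alignment among its parents is called alignment-free. No source used here gives the programs, versions or strand settings.

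Entries without a gene held 37.0 and 46.4 expected counts, 1.63e-04% and 2.16e-04% of the totals, and were left out. Symbols, coordinates and sequences came from GENCODE M21 on GRCm38. Expected counts were rounded for exact binomial intervals, edgeR 4.0.16 TMM factors and DESeq2 1.42.0 size factors; intervals and limits (3 counts for a 0) cover counting error only. Python 3.11.15, numpy 2.4.6, pandas 2.3.3, scipy 1.17.1 and matplotlib 3.10.9 were used. The fold call and interval were tested on simulated data.

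The members and lists were chosen with earlier results of these data known. Named are all 8 members, the other 9 family genes, the 2 highest genes and the lowest of each other list, and transcripts with at least 5% of a gene's TPM in a library by either table. Overlapping genes and Klf6-202 in the main table are given as context. Some items that meet this rule are not reported here.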

Additional observations from a re-analysis of the deposited data

How the results depend on the processing

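The median of the 8 genes, 8.62 TPM, was 33.4 in the alignment-free table, 16.0 there without Klf10-204 (an alternative chosen after seeing the data) and 100.2 on a TPM scale set to sum over nuclear protein-coding genes alone, which by construction raises every gene alike within a library; with 1 library left out it ranged from 7.83 to 9.40. Each of the 8 genes had a higher mean TPM in the alignment-free table, by more than its SD between the libraries. Nuclear protein-coding genes as a whole held 16.6% and 14.95% of TPM there in replicates 1 and 2. In the main table they held 8.81% and 8.35%, so a higher level is not particular to the 8. The other 9 family genes had 1 detected, against 3 in the alignment-free table and 5 after rescaling. Detected members numbered 8 at a minimum TPM of 0.1 or after rescaling, 7 in the alignment-free table and 5 at a minimum of 5. Neighbouring pairs that separated numbered 7 under every alternative run except the alignment-free table, with 6. With 1 library left out no spread of a pair could be computed, and the order of the 8 genes was the same. Members with over 50% of TPM in principal transcripts numbered 6 in either library alone, 5 in the alignment-free table and 7 by counts, the last also chosen after seeing the data. Scaling by TMM, DESeq2 factors or protein-coding counts shifted all genes by at most 0.0217 (log2). No member passed 1.5-fold under any alternative run of that call, each with 1 or 0.1 added to TPM. Counts of detected genes in the other related lists stayed within 1.5 times of the main count. No paired analysis was possible because the series has 1 group. Depth limited Klf4 and Klf9 most, with 109 to 273 counts per library.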
